A study of Rattus norvegicus with 6 samples.

Results

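The genes described are 65 hosts of circular RNAs (circRNAs) in rat spinal cord whose symbols start with Zfp, Znf, Zbtb or Zfhx followed by a number, with Zfp609 left out. Symbol and class decided what counted: every circRNA the authors placed on such a gene, apart from antisense ones. The set itself was chosen with earlier results of these data known. These hosts hold 133 of the 10281 circRNAs placed in sense on a host gene and are 65 of 4443 host genes. RNA came from the cords of 8-week-old Wistar rats: 3 libraries after transection (spinal cord injury, SCI) and 3 after laminectomy alone, in which bone over the cord is removed (sham). Transection is complete in the design text, whereas the title may mean incomplete. No source used here gives the time after surgery. The comparison asks which of these circRNAs differ after cord injury.

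Most proteins of these families bind DNA through zinc fingers, short loops of the chain held by a zinc ion, and many act as repressors. Zbtb proteins add a BTB domain, which pairs proteins and recruits corepressor complexes, Zfhx proteins add homeodomains, and many Zfp proteins carry a KRAB domain that recruits the corepressor Trim28. The finger arrays are often coded by a single long exon. A circRNA is a closed loop made when the end of an exon is spliced back to the start of the same or an earlier exon, and it is measured by reads over that back-splice junction. A host's circRNA level is not the level of its mRNA or protein.

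By symbol, 64 of the 65 hosts are current genes in the RefSeq table for the rat assembly GRCr8, and Zfp295 is there an older name of Zbtb21. All 65 lie on the same chromosome in both tables. By the prefix of the authors' symbols, the hosts divide into 11 Zbtb, 2 Zfhx and 52 Zfp or Znf, with Zfp295 counted among the last. The symbol does not fix the function: Zfp638, for example, has a matrin-type finger.

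Depth was low. Back-splice reads totalled 21255, 20847 and 19603 in SCI against 11631, 9805 and 12722 in sham, so 1 read stood for 0.47 to 1.02 per 10000 and a count of 0 allows a level of up to 1.41 to 3.06 per 10000. Sham replicate 3 stood apart: it held 17 of the 65 hosts, against 29 and 30 in the other sham libraries and 37 to 45 in SCI. Levels over tested hosts, as log2(CPM + 100), correlated at 0.724 to 0.74 between SCI libraries and at 0.34 to 0.481 between sham libraries (Pearson, across genes, which are not independent replicates). Among markers of the tissue, 7 of 11 neuronal and 4 of 6 oligodendrocyte genes hosted circRNAs, 3 of 4 astrocyte genes did, and all 5 microglia and macrophage genes were at 0. Neuronal markers took 0.423% to 0.561% of reads in SCI and 0.353% to 0.401% in sham, and oligodendrocyte markers 0.168% to 0.198% and 0.138% to 0.204%. Whether cell makeup had a part in the results below was not tested, and fewer cells of a type and less RNA per cell cannot be told apart.

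The mean share of back-splice reads from the zinc finger and BTB hosts was close in the 2 groups, and this rested on sham replicate 3. That share was 1.35%, 1.43% and 1.44% in SCI and 1.54%, 1.57% and 1.14% in sham, with means of 1.41% ± 0.0476 and 1.42% ± 0.24 (SD, n = 3 each). The sham range enclosed all SCI values, and sham replicate 3 was the lowest library, with a Wilson 95% interval of 0.969% to 1.34%. The SCI intervals, 1.21% to 1.52%, 1.28% to 1.6% and 1.29% to 1.62%, each overlapped it. They also overlapped those of sham replicates 1 and 2, at 1.33% to 1.78% and 1.34% to 1.84%. The other sham libraries lay above every SCI library, and without sham replicate 3 the sham mean was 1.55% and the difference (SCI minus sham) -0.145 percentage points, against -0.00709 with it. With exonic circRNAs only, as a share of exonic reads rather than of all back-splice reads, the difference was -0.0923 percentage points. The share has no test, since it is a score over genes chosen by hand. Zfp and Znf hosts took 1.28% ± 0.0531 in SCI and 1.27% ± 0.239 in sham, Zbtb hosts 0.0849% ± 0.0253 and 0.0935% ± 0.0233, and Zfhx hosts 0.0405% ± 0.00674 and 0.0509% ± 0.0287 (SD, n = 3 each). The groups overlapped in each subfamily.

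More of these hosts were seen in each SCI library than in any sham library. At least 1 read was counted for 38, 37 and 45 of the 65 hosts in SCI and for 29, 30 and 17 in sham. Thinned to 9805 reads, the smallest total, the expected numbers were 32.9, 31.6 and 37.4 against 28.4, 30 and 16.4. The thinned means differed by 9.04 hosts, by 4.78 without sham replicate 3 and by 2.69 where a host needed 2 reads to count. Over all 4443 hosts the thinned numbers were 2080, 2015 and 2074 against 1603, 1754 and 1403, so the gap was shared by hosts in general. The table lists only circRNAs that reached 2 reads in some library, a limit that deeper libraries reach more easily. Of the 65 hosts, 22 had reads in SCI libraries only and 9 in sham libraries only, beside 34.7% and 15.4% of all hosts. A further 10 were seen in all 6 libraries, beside 11.8% of all hosts. Among the 23 hosts with 15 or more reads, those 10 make up 10 of 23, beside 43.4% of the 1204 hosts with that many. Sham replicates 1, 2 and 3 had no read for 4, 6 and 8 of the 23, beside 22.3%, 19.8% and 28.2%.

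**Figure D1:**
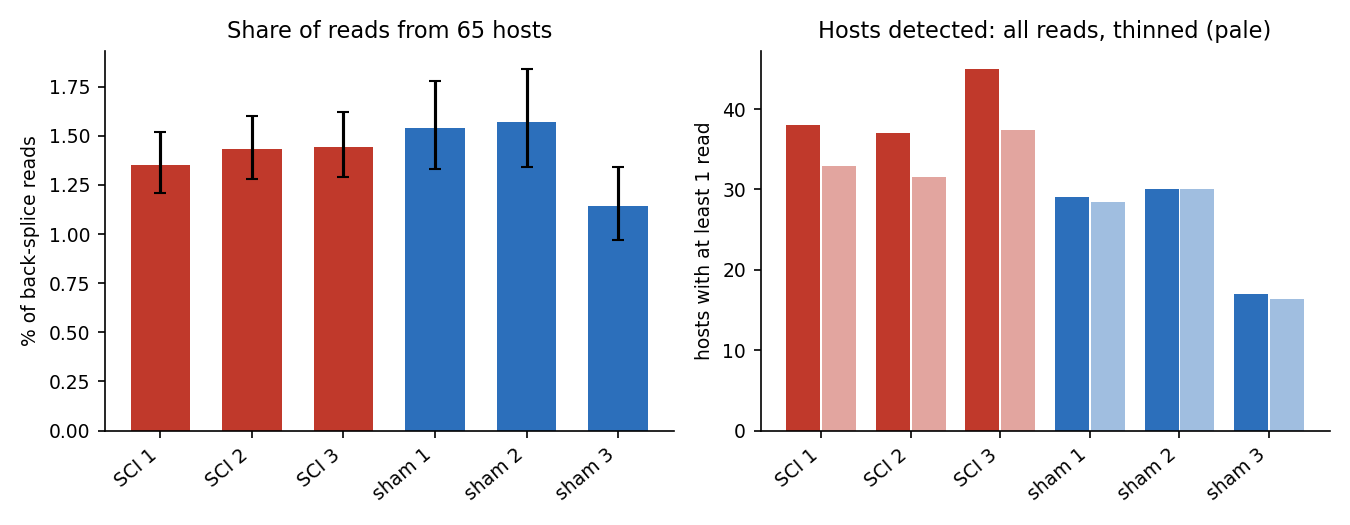
Left, percent of back-splice reads from the 65 hosts in each library, with Wilson 95% intervals that cover counting error only; right, the number of these hosts with at least 1 read, for all reads (dark) and thinned to 9805 reads (pale). The shares lie between 1.14% and 1.57%, and sham replicate 3 is lowest in both panels.

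Reads were concentrated in a few hosts. Of 1347 reads, Zfp532 had 328, Zfp407 126 and Zfp827 111, together 41.9%. The median host had 6 reads over the 6 libraries, 42 hosts had 2 to 14, and 29 of these had 5 or fewer. In the test on host sums, 9 of the 65 hosts passed the filter on low counts, and 56 did not. The tested hosts had 27 to 328 reads, and the most-read untested host had 44, more than some tested hosts but unevenly spread over libraries.

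No zinc finger or BTB host passed the test. Of the 9 tested, 0 had an adjusted p under 0.05 by edgeR's quasi-likelihood test, beside 0.309% of the 647 hosts tested, and 0 had an unadjusted p under 0.05, beside 6.49%. DESeq2 and limma-voom also called 0 of the 9. Their log2 fold changes (SCI over sham) ran from -0.39 to 1.18 with a median of 0.09, against a median of 0.14 over all tested hosts. A positive value was seen in 6 of 9, against 59.4% of all hosts. The median SE of the 9 was 0.82, which limits what a test at this depth can show.

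Zfp532 was the most-read host, at about the same level in both groups. The human protein is part of a chromatin-bound zinc finger complex with the product of the Zfp592 gene. Zfp532 gave 67, 68 and 74 reads in the SCI libraries, and 45, 46 and 28 in the sham ones. Per 10000 reads that was 31.5, 32.6 and 37.7 against 38.7, 46.9 and 22, so that the sham values lay on both sides of the SCI values. The log2 fold change was -0.04 (SE 0.29, adjusted p = 0.986 by edgeR).

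Zfp407, whose mouse protein regulates glucose uptake in fat cells, gave counts of 29, 21 and 27 after injury and 8, 16 and 25 in sham, or 12.5 ± 2.1 and 14.3 ± 6.63 per 10000 (SD, n = 3 each). The groups overlapped, and the log2 fold change was -0.17 (SE 0.44, adjusted p = 0.986 by edgeR). Zfp827, whose human protein recruits a nucleosome remodelling complex to some telomeres, had 17, 25 and 22 reads against 20, 15 and 12. At 8, 12 and 11.2 per 10000 in SCI and 17.2, 15.3 and 9.43 in sham, only sham replicate 3 fell within the SCI range. At -0.39 (log2, SE 0.42, adjusted p = 0.986 by edgeR), its fold change was the lowest of the 9.

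Zfp251 had the smallest p of the 9 hosts, and the value turned on 1 sham library. Its counts were 16, 16 and 7 for SCI, and 0, 0 and 10 for sham. Per 10000 that was 7.53, 7.67 and 3.57 against 0, 0 and 7.86, so sham replicate 3 was above every SCI library and the other sham libraries were at 0. The log2 fold change was 1.18 (SE 1.07, adjusted p = 0.96 by edgeR). Without sham replicate 3 all of its reads came from SCI libraries, and the adjusted p was 0.0717 (edgeR; 0.0717 to 1 over the alternatives), still short of the threshold. In that setting Zfp251 met the filter on low counts only through the SCI libraries, where it was high. That p is therefore no support for a difference. Of all 940 hosts tested there, 8 passed.

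Zfp148, a GC-box binding repressor and activator also known as ZBP-89, also had its highest level in sham replicate 3. Zfp148 counts were 11, 9 and 13 after injury against 3, 0 and 11, and the log2 fold change was 0.49 (SE 0.92, adjusted p = 0.986 by edgeR). That library held 8.65 Zfp148 reads per 10000, against 4.32 to 6.63 in SCI. Without it the log2 fold change was 1.99 (adjusted p = 0.51 by edgeR, the lowest over the alternatives, which reached 1).

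The other 4 tested hosts lay close to 0. Zfp644, whose human protein guides histone H3K9 methyltransferases, gave 8, 20 and 11 reads after injury against 5, 10 and 3 (0.23 on the log2 scale, SE 0.71). Zbtb44, the only Zbtb host that was tested, had 9, 7 and 9 against 3, 2 and 8 (0.16, SE 0.82). For Zfp317 the reads were 8, 7 and 3 against 4, 5 and 0 (0.09, SE 1.09). Zfp347 had 6, 14 and 8 against 8, 6 and 1 (0.03, SE 0.84). The adjusted p of these 4 lay between 0.986 and 0.996 (edgeR). All 4 overlapped between groups.

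**Figure D2:**
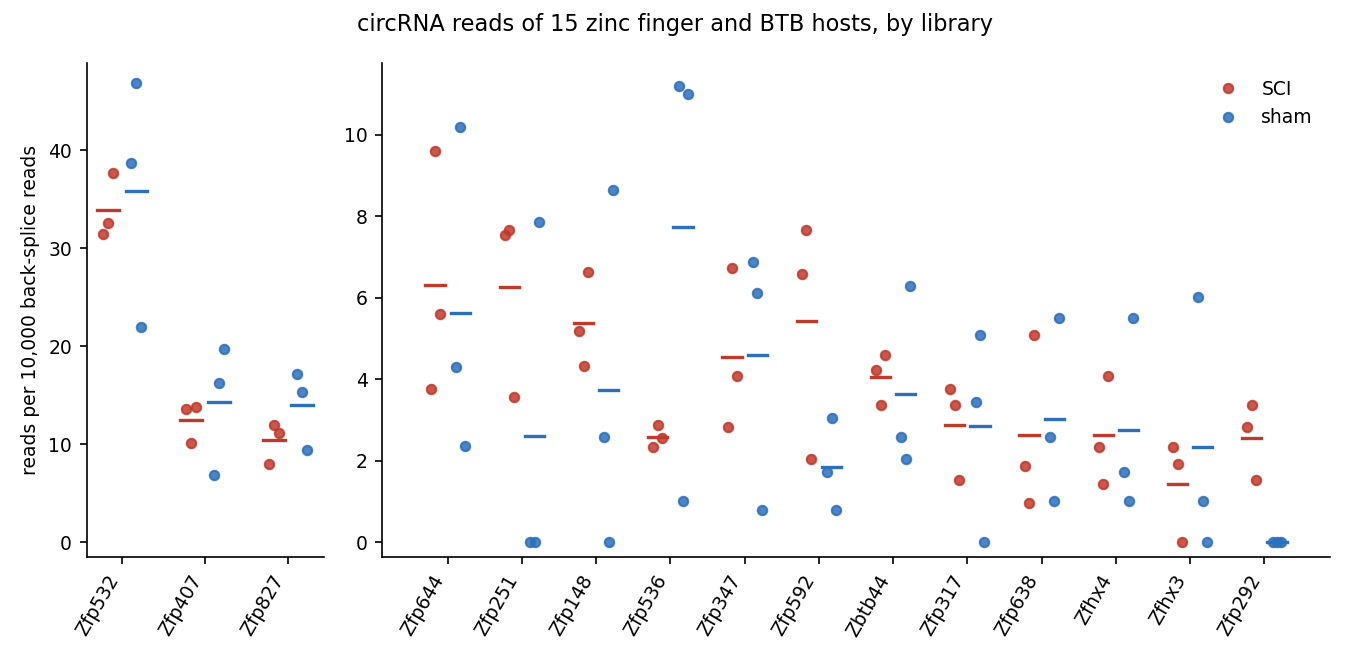
Reads per 10000 back-splice reads of the 15 named hosts in each SCI (red) and sham (blue) library, with group means as bars; the left panel has its own scale. SCI and sham points overlap for every host but Zfp292, which had no read in sham. The sham points have the larger SD for every host but Zfp592 and Zfp292.

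The untested hosts included Zfp592 and Zfp536, both among the 12 most-read. Zfp592, the partner of Zfp532 named above, gave 14, 16 and 4 reads after injury against 2, 3 and 1. At 6.59, 7.67 and 2.04 per 10000 against 1.72, 3.06 and 0.786, the groups overlapped through SCI replicate 3. Summed over libraries the ratio to totals was 3.14 (exact 95% interval 1.3 to 9.14, counting error only, which leaves out the spread between libraries).

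Zfp536, a repressor known from mouse cells to restrain retinoic acid-driven neuronal differentiation, went the other way in summed reads. Zfp536 counts of 5, 6 and 5 after injury stood against 13, 1 and 14, a ratio to totals of 0.316 (exact 95% interval 0.16 to 0.605, counting error only). Sham replicates 1 and 3 stood at 11.2 and 11 per 10000 and sham replicate 2 at 1.02, below all SCI libraries.

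Zfp292 was the one host with 15 or more reads whose groups did not overlap. The 6, 7 and 3 reads of Zfp292 all fell in SCI libraries. With the 3 sham libraries together set to 3 reads, SCI was 2.95-fold higher, a ratio that leaves out counting error in the SCI reads. The SCI levels were 2.82, 3.36 and 1.53 per 10000, while a count of 0 allows up to 2.58, 3.06 and 2.36 in the sham libraries, so the gap lies close to what this depth can show. Such a gap was seen for 1 of 23 members with 15 or more reads, beside 8.8% of the 1204 hosts with that many. A gap in the lower direction was seen for 0 of 23, beside 4.82%. With no filter, all 65 hosts entered the edgeR fit: 0 passed, beside 0.158% of 4443 hosts, and 2 had an unadjusted p under 0.05, beside 4.7%. These were Zfp292 and Zbtb10, both with an adjusted p = 0.599 (edgeR). Zbtb10, singled out after its values were seen, was at 0 in SCI, and its 9, 4 and 0 sham reads came from a single circRNA. With the 3 SCI libraries together set to 3 reads, SCI was 7.83-fold lower, a ratio that leaves out counting error in the sham reads. The groups overlapped, since sham replicate 3 was also at 0. Zfp445 and Zfp521, also chosen after their values were seen, had ratios to totals above that of Zfp592, at 3.69 (exact 95% interval 1.09 to 19.4) and 3.51 (1.03 to 18.5), counting error only, with 3 sham reads each. Their groups overlapped.

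The Zfhx hosts are large homeodomain zinc finger factors of neuronal development. Zfhx4 gave 5, 3 and 8 reads after injury against 2, 1 and 7, and Zfhx3 had 5, 4 and 0 against 7, 1 and 0. Both overlapped, with ratios to totals of 0.886 (exact 95% interval 0.378 to 2.18) and 0.623 (0.213 to 1.86), counting error only. Zfp638 had 4, 2 and 10 reads against 3, 1 and 7. The Zbtb hosts other than Zbtb44 had 2 to 13 reads each. Over the 23 members with 15 or more reads, 11 had a higher mean level in SCI, against 53% of the 1204 hosts with that many.

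Counted once each, the circRNAs of these hosts differed in make-up from those of hosts in general, as a description with no test. Of the 133, 67 were exonic (50.4%, against 67.7% of 10281), 60 sense overlapping (45.1%, against 27.6%) and 6 intronic (4.51%, against 4.76%). These class names are the authors'. By reads the exonic shares lay closer, at 65.4% against 67.6%. A circBase identifier was given for 50.4%, against 41.7%. The median genomic span was 7488 bases, against 10968. Sightings in all 6 libraries were 10 of 133 (7.52%, against 3.69%), and 63 (47.4%, against 56.7%) were seen in 1 library.

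Short exonic circRNAs of these hosts were more often than over all hosts listed with a predicted length equal to their span, as when no intron lies inside. Of 29 exonic circRNAs spanning at most 5000 bases, this held for 13, 44.8% against 24.4% of 1940 over all hosts. They carried 263 reads, 19.5% of the reads of these hosts against 7.85%. The 5 most read were circRNA number 4 of Zfp532 (2354 bases, 47 reads), the first of Zfp827 (1038 bases, 46 reads), that of Zfp592 (2233 bases, 40 reads), the first of Zfp536 (1578 bases, 37 reads) and the first of Zbtb44 (1074 bases, 32 reads). Where a prediction removed introns, the exonic circRNAs had a median predicted length of 1010 bases (43 circRNAs), against 582. For 11 of 38 exonic circRNAs of longer span the predicted length also equalled the span (28.9%, against 12%), up to a span of 67706 bases in Zfp827, so equality does not always mean that no intron is there.

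**Figure D3:**
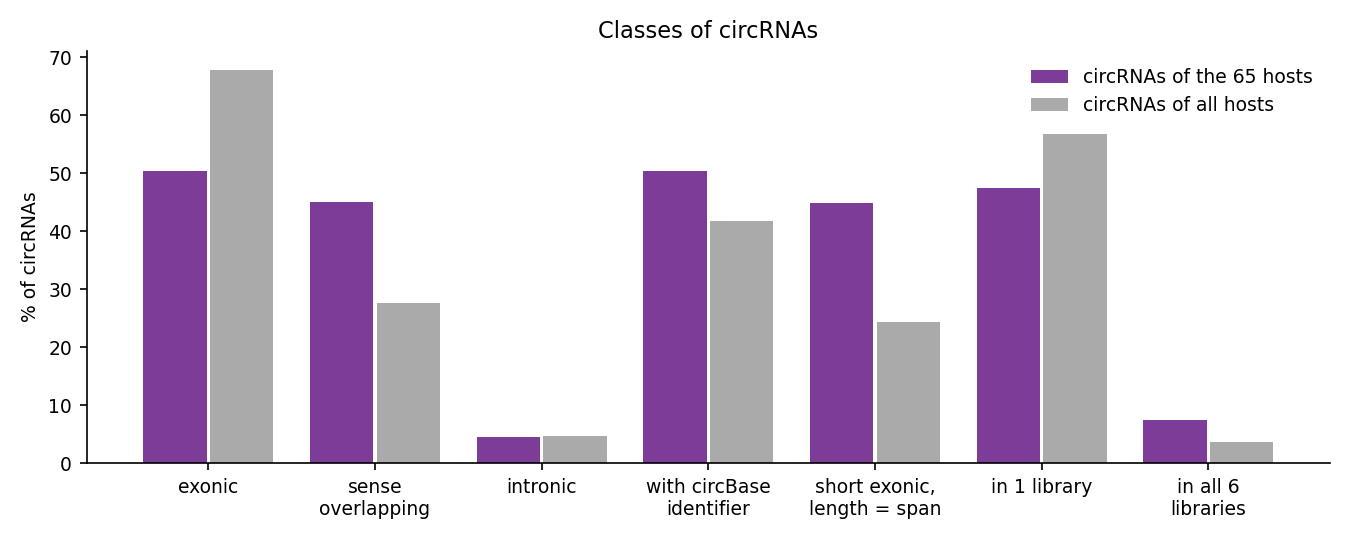
Percent of the 133 circRNAs of the 65 hosts (purple) and of the 10281 circRNAs of all hosts (grey) in each class; the class of short exonic circRNAs whose predicted length equals their span is a percent of exonic circRNAs spanning at most 5000 bases. Sense overlapping circRNAs make up 45.1% and 27.6%, and the short class 44.8% and 24.4%.

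Several circRNAs of a host often shared a splice edge. Of 31 hosts with 2 or more circRNAs, 23 had at least 1 shared edge (74.2%, against 62.9% of 2124). Coordinates below are those of the table, counted from 1, and no source used here states their genome build.

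Zfp532 had 8 circRNAs, all exonic, numbered by reads. The first (chromosome 18, 60520546 to 60537491, plus strand) gave 23, 35 and 41 reads after injury against 19, 24 and 10. The second (60532393 to 60537491) had 13, 14 and 14 against 10, 8 and 3, and the third (60525385 to 60537491) 12, 8 and 9 against 8, 3 and 15. These 3 and a rarer circRNA end at the same base, and together they held 83.2% of the host's reads. Number 4 by reads (60505709 to 60508062), which lies upstream of those 3, had 13, 7 and 8 reads against 8, 11 and 0. The remaining 4 had 2 to 4 reads, all in SCI libraries. Of the 10281 circRNAs over all hosts, 48.8% were seen in SCI libraries only.

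The first Zfp532 circRNA led in 5 of the 6 libraries, and the third led in sham replicate 3. The first took 34.3%, 51.5% and 55.4% of the host's reads in SCI and 42.2%, 52.2% and 35.7% in sham. The third took 17.9%, 11.8% and 12.2% in SCI and 17.8%, 6.52% and 53.6% in sham, where sham replicate 3 was the highest. Number 4 had no read in that library.

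In Zfp407 the first circRNA (chromosome 18, 80463697 to 80474009, minus strand, sense overlapping) held most reads: 21, 16 and 16 after injury and 6, 11 and 16 without. Its part of the Zfp407 reads was 69.3% ± 8.89 after injury and 69.2% ± 5.52 in sham (SD, n = 3 each), so the means differed by less than the spread. The second (80216467 to 80254997, exonic), far downstream in the gene, counted 6, 5 and 4 against 2, 4 and 2. The third (80469295 to 80474009) shares its upstream edge with the first and had 10 reads, and the other 3 had 2 or 3.

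Zfp827 had 13 circRNAs, the most of these hosts. On the minus strand 6 of them start at the same upstream edge (43424535 on chromosome 19) and held 78.4% of its reads. The first (43423498 to 43424535, exonic) gave 10, 5 and 12 reads after injury against 11, 6 and 2. The second (43408486 to 43424535, exonic) had 3, 12 and 5 against 3, 2 and 0. In SCI replicate 2 the second led with 48% of the host's reads and the first had 20%, the reverse of the other SCI libraries. The other 11 had 2 to 7 reads.

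**Figure D4:**
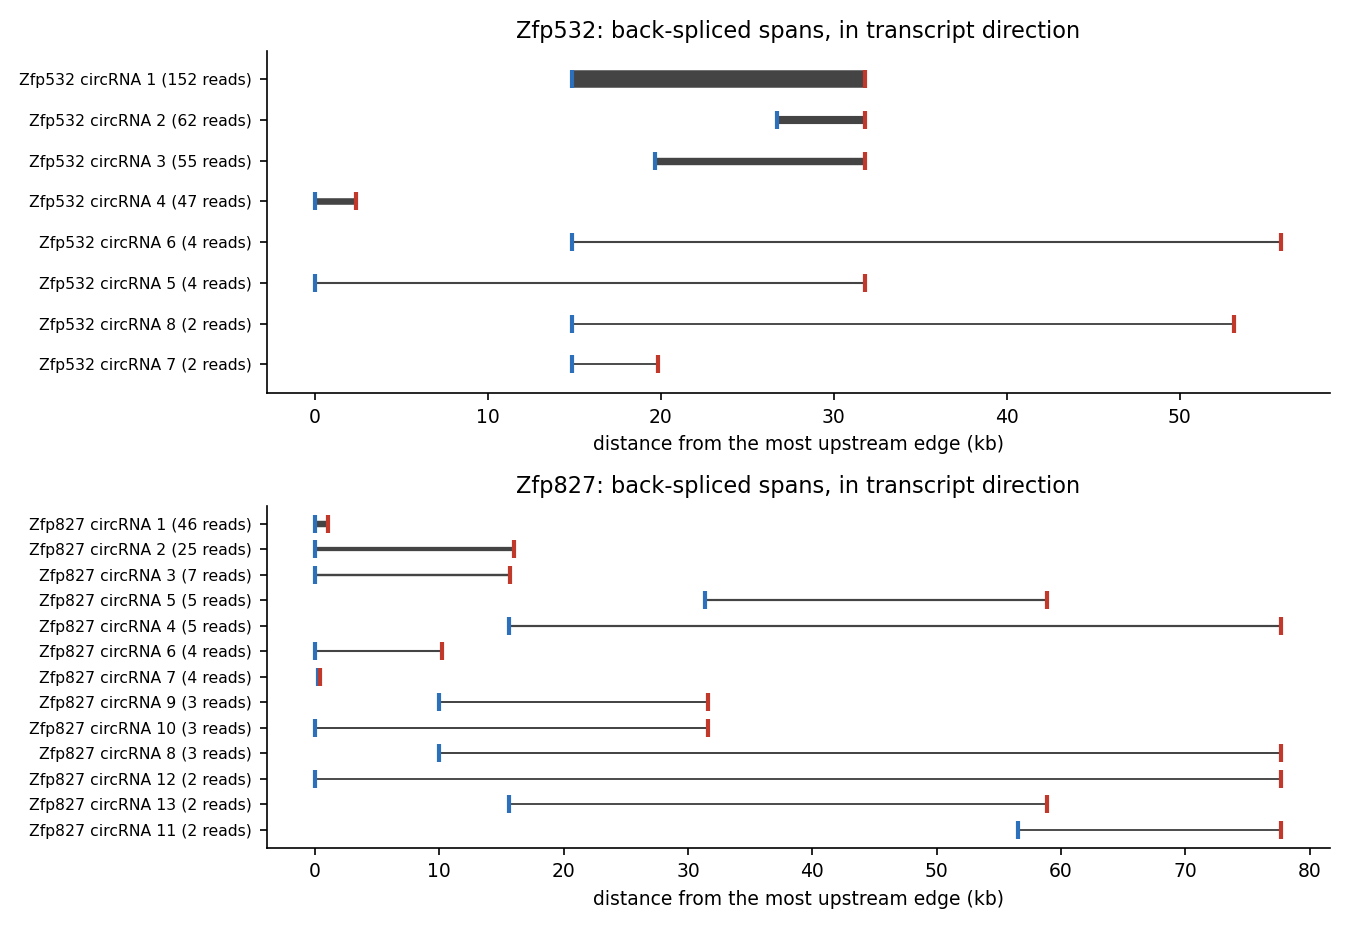
Spans of the circRNAs of Zfp532 (top) and Zfp827 (bottom), as distance in kb from the most upstream edge; blue ticks are upstream and red ticks downstream edges, and bars are thicker with more reads. The 3 most-read Zfp532 circRNAs share their downstream edge, and the 3 most-read Zfp827 circRNAs their upstream edge.

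Zfp644 had 6 circRNAs with 23, 11, 10, 6, 5 and 2 reads. The first, an exonic one at 4174198 to 4177998 on the plus strand of chromosome 14, gave 2, 11 and 2 reads after injury against 3, 4 and 1. Zfp148 had 5, with 18, 15, 10, 2 and 2 reads. Its second, exonic at 73626786 to 73672241 on the minus strand of chromosome 11, was seen in SCI libraries only, with 6, 4 and 5 reads. So were 44.4% of the 133 circRNAs and 48.8% of the 10281 over all hosts, whose median was 3 reads each. The first of Zfp148 (73657573 to 73672241) had 5, 3 and 4 against 1, 0 and 5. The third (73626786 to 73628186) had 4 reads in SCI replicate 3 and 6 in sham replicate 3.

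Zfp251 had 2 circRNAs that share an upstream edge (chromosome 7, 117901161, minus strand). The first (117899492 to 117901161) gave 11, 15 and 7 reads after injury against 0, 0 and 3, and the second (117898859 to 117901161) 5, 1 and 0 against 0, 0 and 7. In sham both were seen in replicate 3 alone. Zfp347 had 3, all sense overlapping on the minus strand of chromosome 7. The first (10145989 to 10153310) gave 3, 11 and 3 reads after injury against 4, 3 and 1, the second (10145885 to 10153206) 3, 3 and 1 against 4, 3 and 0, and the third (10144448 to 10151745) had 4 reads in all. The first 2 have the same span of 7322 bases and differ by a shift of 104 bases at both edges. Among the 10281 circRNAs, 7 pairs on a host share a span and lie at most 500 bases apart in this way.

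In the other named hosts 1 circRNA held most reads over the 6 libraries, though not in every library. The first of Zfp536 (chromosome 1, 94959068 to 94960645, minus strand, exonic) had 37 of 44 reads, and the circRNA of Zfp592 (chromosome 1, 143794702 to 143796934, plus strand, exonic) all 40. On the plus strand of chromosome 8 lie the exonic first circRNAs of Zbtb44 (32214654 to 32215727), with counts of 9, 4 and 9 against 0, 2 and 8, and of Zfp317 (19964561 to 19969117), with 8, 7 and 1 against 4, 5 and 0. The first circRNAs of Zfp638 (chromosome 4, 180212217 to 180213729), Zfhx4 (chromosome 2, 118317058 to 118321063), Zfhx3 (chromosome 19, 53683170 to 53747431) and Zfp292 (chromosome 5, 54887305 to 54892563) had 14, 16, 14 and 13 reads. In sham replicate 3 all 7 reads of Zfhx4 and all 7 of Zfp638 came from their second circRNAs (118244139 to 118321063 and 180240079 to 180241015), and in sham replicate 1 all 3 reads of Zbtb44 came from its second.

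In the test of single circRNAs, 9 of the 133 met the filter on low counts and 0 passed the test, beside 0.207% of the 484 tested (edgeR). An unadjusted p under 0.05 was seen for 1, beside 6.2%: the first circRNA of Zfp251, at 2.49 on the log2 scale (SE 1.15, adjusted p = 0.727 by edgeR). With 0, 0 and 3 sham reads, this circRNA met the filter only through the SCI libraries, where it was high. Its unadjusted p is therefore no support for a difference. Per 10000 reads all 3 SCI values of this circRNA were above all 3 sham values. Such a gap was seen for 8.8% of the 1204 hosts with 15 or more reads, and its share among single circRNAs was not counted. DESeq2 and limma-voom called 0 of the 9. The 4 tested circRNAs of Zfp532 stood at -0.02 (SE 0.46), 0.03 (SE 0.67), -0.69 (SE 0.7) and -0.42 (SE 0.92), and the first circRNAs of Zfp407, Zfp827, Zbtb44 and Zfp317 at -0.21, -0.42, 0.29 and -0.15. Without sham replicate 3 the adjusted p of the Zfp251 circRNA was 0.111 (edgeR; up to 0.99 over the alternatives, which were chosen after seeing the data).

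**Figure D5:**
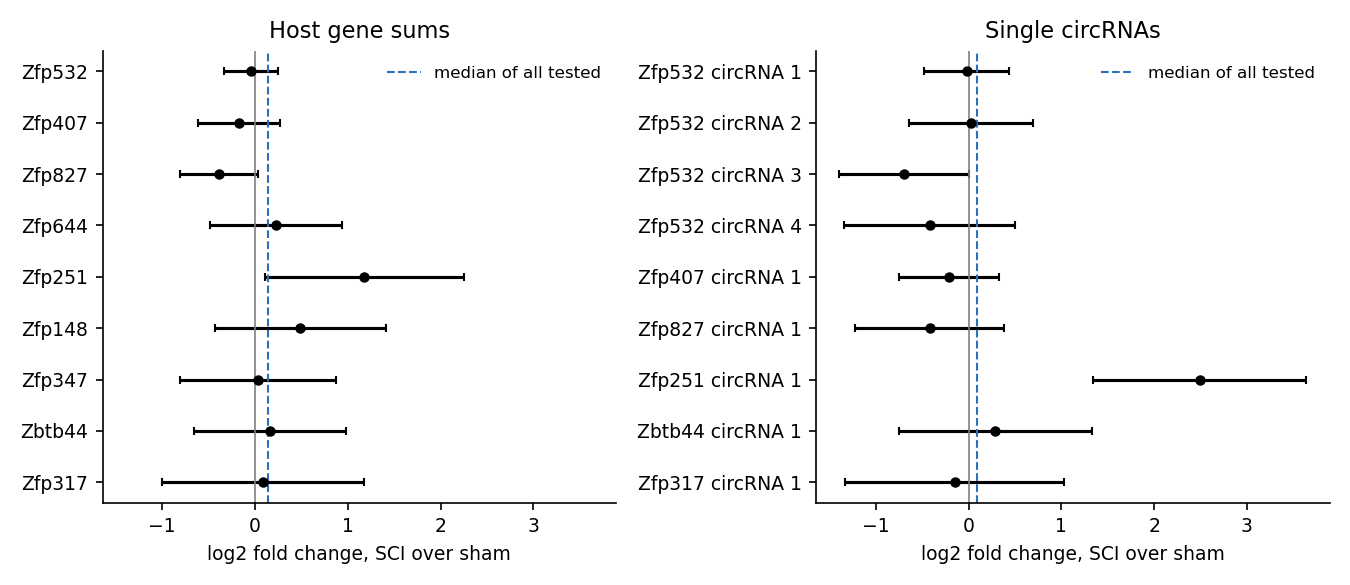
Log2 fold change (SCI over sham) with its SE for the 9 tested host sums (left) and the 9 tested circRNAs (right), numbered by reads within their host; the dashed line is the median of all hosts (0.14) or circRNAs (0.09) tested. No point passed the test, and the first circRNA of Zfp251, at 2.49, lies farthest from 0.

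Zinc finger factors under other names, such as Zfx and the neuronal factor Myt1l, gave 30 hosts from a list of 83 genes, and 7 were tested. Of these 0 passed over all hosts (edgeR), 4 had positive and 3 negative log2 fold changes, and the median was 0.38 against 0.14 over all hosts, of which 0.309% passed and 59.4% were positive. An unadjusted p under 0.05 was seen for 1 of the 7, beside 6.49% of all hosts: Prdm10, named after its values were seen, with 1, 4 and 0 reads after injury against 4, 4 and 12 (-2.69, SE 1.12, adjusted p = 0.698 by edgeR). Prdm10 met the filter on low counts only through the sham libraries, where it was high. Its unadjusted p is therefore no support for a difference. Zfx gave 38, 71 and 69 reads after injury against 35, 21 and 20 (0.4, SE 0.35). Myt1l and Glis1 stood at 0.71 (SE 0.65) and -0.19 (SE 1.13). Zfat, a factor known from lymphocytes, had 3, 4 and 9 reads against 21, 13 and 0 (-1.92, SE 0.97, adjusted p = 0.767 by edgeR). Without sham replicate 3, where Zfat was at 0, it passed as lower in SCI (adjusted p = 0.0395 by edgeR), beside 8 of all 940 hosts tested. In that setting the sham libraries, where Zfat was high, met the filter on low counts by themselves, and the SCI libraries did not. That call is therefore no support for a difference.

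A list of 48 genes for corepressors and other chromatin regulators gave 24 hosts. Whether the zinc finger and BTB proteins recruit their products in this tissue was not tested. Of the 7 tested hosts 0 passed (edgeR), beside 0.309% of all hosts. Log2 fold changes were positive for 4 and negative for 3, beside 59.4% positive over all hosts. Their median was 0.12, against 0.14 over all hosts. The histone deacetylase gene Hdac4 gave 27, 16 and 24 reads after injury against 9, 15 and 14 (-0.02, SE 0.45). Hdac2 had 5, 11 and 16 against 8, 4 and 31 (-1.15, SE 0.69), where sham replicate 3 was highest, and without that library its log2 fold change was 0.00. The histone methyltransferase genes Nsd1 and Ehmt1 stood at 0.59 (SE 0.57) and -0.58 (SE 0.71), and the DNA methyltransferase gene Dnmt3a at 0.68 (SE 0.98).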

How the data were processed

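The authors deposited whole-number counts of back-splice junction reads for 11061 circRNAs, per the file headers, with no normalisation. The predicted length (other values: bases) is the authors' annotation. Bowtie 0.12.2 and mm8, a mouse build, are named in the submitters' processing notes. No source used here gives the circRNA caller, the build of the coordinates, the use of strand or whether linear RNA was removed. A further 6 columns of per-sample values were not used.

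Counts were summed per host gene without antisense circRNAs. edgeR 4.0.16 (R 4.3.3) fitted group alone on all hosts or circRNAs, with TMM scaling, filterByExpr (minimum count 5, minimum total 15), quasi-likelihood F tests and Benjamini-Hochberg adjustment at 0.05; SE is the log2 fold change over the root of F. DESeq2 1.42.0 and limma 3.58.1 (voom) were alternatives. The scripts were tested on simulated counts. Levels are reads per 10000 back-splice reads of a library. Wilson and exact (SciPy 1.17.1) intervals are at 95%. They cover counting error only, and floors of 3 reads cover it only for a count of 0. With no molecular identifiers, reads are not separate molecules. All pairs of libraries differed beyond sampling noise (chi-square over degrees of freedom, 2.23 to 5.15).

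Members and lists were chosen with earlier results of these data known. Named are the 12 most-read hosts, the 5 tested with the smallest p, hosts with 15 or more reads and no overlap, Zbtb and Zfhx hosts with 15 or more reads, their most-read circRNAs, those of up to 6 hosts with 3 or more circRNAs, and up to 5 tested hosts a list. A host that this rule names in a list is not reported here. The labels do not tie each library to a separate rat, and p-values then reflect only library-to-library spread, which may be technical.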

Additional observations from a re-analysis of the deposited data

How the results depend on the processing

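Every alternative left the members called at 0, for hosts and for circRNAs. The count of all hosts called, 2, was 1 with DESeq2 size factors, with the replicate block and with antisense circRNAs added. It was 3 with no TMM, with filterByExpr defaults and with limma-voom, 4 with DESeq2, 7 with no filter, and 0 to 8 with a library left out. The count of all circRNAs called, 1, was 2 with no TMM, DESeq2, limma-voom and the replicate block, 0 with no filter, and 0 to 3 with a library left out. The numbers did not show pairing: same-numbered libraries deviated together at correlations of -0.0103, 0.0605 and 0.0339, against -0.0939 to 0.0605 for other pairs, and the block called 0 members. Without sham replicate 3, the list of other zinc finger factors had 1 call, Zfat (0 to 1 over libraries left out), beside 8 of all 940 hosts tested. As described above, that call is no support for a difference. The difference of Zbtb hosts, -0.00867 percentage points, was 0.0226 for exonic circRNAs only, as a share of exonic reads. That of hosts detected, 9.04 at equal totals, was 2.69 at 2 or more reads and 4.78 without sham replicate 3.

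Signs of values that did not pass turned in 49 cases. With no filter, where the median of all hosts moved from 0.14 to 0.68 and that of circRNAs from 0.09 to 2.51, Zfp532 stood at 0.28, Zfp407 at 0.20, Hdac4 at 0.32 and Glis1 at 0.12, and among first circRNAs Zfp532 at 0.52, Zfp407 at 0.38, Zfp827 at 0.16 and Zfp317 at 0.35, with number 4 of Zfp532 at 0.10. With limma-voom Zfp532 stood at 0.04, Glis1 at 1.67, Zfp532 circRNAs 1 and 4 at 0.06 and 0.66 and that of Zfp317 at 0.28. With the replicate block Glis1 stood at 1.28, and the first circRNAs of Zfp532 and Zfp317 at 0.00 and 0.01. Zfp347 stood at -0.03, -0.05 and -0.04 with DESeq2 size factors, no TMM and DESeq2, and the second Zfp532 circRNA at -0.02 with no TMM. Over libraries left out, the range was -0.25 to 0.35 for Zfp532, -0.40 to 0.22 for Zfp407, -0.17 to 1.10 for Zfp644, -0.44 to 0.56 for Zfp347, -0.46 to 0.91 for Zfp317, -0.14 to 0.41 for Hdac4, -1.56 to 0.00 for Hdac2 and -0.75 to 5.89 for Glis1. For circRNAs, whose alternatives were chosen after seeing the data, it was -0.24 to 0.48, -0.25 to 0.50 and -0.89 to 0.46 for Zfp532 circRNAs 1, 2 and 4, and for first circRNAs -0.34 to 0.18 for Zfp407, -0.75 to 0.37 for Zfp827, -0.12 to 1.92 for Zbtb44 and -0.62 to 0.61 for Zfp317. The cause was not tested. Depth limits most members: 42 of the 65 hosts had under 15 reads over the 6 libraries.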

Other observations

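Among antisense circRNAs, which were left out of the host sums, 1 had a host of these families: Zfp57, whose mouse protein keeps methylation at imprinted genes. Its circRNA had 0 reads in the SCI libraries and 1, 2 and 0 in the sham libraries.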
